A study of Mus musculus with 5 samples.

Results

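The promoters of 8 trithorax core and partner genes, Wdr5, Rbbp5, Ash2l, Dpy30, Men1, Hcfc1, Ruvbl1 and Ruvbl2, were examined for Pcgf6 in mouse ESCs. The genes were listed by name rather than by their signal, though with earlier results of these data known. All 8 were found among 22359 protein-coding genes. At each, the depth within 2 kb of the transcription start site (TSS) was scaled by the summed depth of its library, given in ppm (the share of that sum times 1000000), and compared with the input. None of the 8 promoters passed the test for enrichment over the input with either of the 2 Pcgf6 antibodies. The observed ratio needed to pass ran from 2.09 (Men1, Abcam) to 6.02 (Dpy30, Santa Cruz), so lower observed ratios could not pass at this depth. Summed over the 8, the Santa Cruz ChIP/input ratio was 0.810 and the Abcam ratio 0.935.

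Trithorax proteins counteract Polycomb silencing, and many of them act by methylating histone H3 at lysine 4, a mark of active promoters. Wdr5, Rbbp5, Ash2l and Dpy30 form the core that every Mll and Set1 methyltransferase needs for full activity. Menin, the product of Men1, tethers Mll1 and Mll2 to chromatin, and Hcfc1 links Set1 and Mll enzymes to DNA-bound factors. Ruvbl1 and Ruvbl2 are AAA+ ATPases that assemble and belong to the INO80, SRCAP and TIP60 remodelling complexes. Pcgf6 is the RING finger subunit of a variant Polycomb repressive complex that also holds the DNA-binding proteins Mga, Max and E2f6.

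The cells were CCE ESCs, an established mouse line, used before passage 15 and grown with 15% fetal bovine serum and 1000 U/ml LIF. No group was treated or genetically changed, and chromatin of every library had been fixed with both disuccinimidyl glutarate and paraformaldehyde. The groups were 2 libraries with a Santa Cruz antibody to Pcgf6, 2 libraries with an Abcam antibody to Pcgf6 and 1 input library, for which the labels give no antibody. The question addressed here was whether Pcgf6 occupied the promoters of genes that encode trithorax core subunits and their partners.

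The input held 22801077 fragments of 300 bp, and the ChIP libraries between 2289606 and 2849851. The 2 libraries of each antibody were not independent. Of the positions in the first, 88.0% (Santa Cruz) and 88.3% (Abcam) recurred in the second at a shift of 1 or 15 bp. Over windows of 10 kb the 2 libraries differed by less than sampling noise. Their chi-square per degree of freedom was 0.120 and 0.132, against 1.01 between the antibodies. They were therefore counted as 1 sample per antibody, of 2565162 and 3162822 fragments, with a shared fragment counted once. No SD could be given. Each test compares the fragments of 2 libraries rather than conditions, and each 95% interval (exact Clopper-Pearson) covers counting error only.

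The sequences just upstream of the start are shown for the promoters that hold a match to a searched motif there (Wdr5 and Ash2l), for the promoter with the highest observed over expected CpG count (Rbbp5), and for both starts of Dpy30. Capitals mark matches to GCGGGA on either strand, a sequence bound by E2F factors. Coordinates are on NCBIM37 (mm9). Each stretch ends at the base before the annotated start, except that of the downstream Dpy30 start, which ends 39 bases earlier, at a RefSeq start.
Wdr5, chr2:27370427-27370676 (+ strand): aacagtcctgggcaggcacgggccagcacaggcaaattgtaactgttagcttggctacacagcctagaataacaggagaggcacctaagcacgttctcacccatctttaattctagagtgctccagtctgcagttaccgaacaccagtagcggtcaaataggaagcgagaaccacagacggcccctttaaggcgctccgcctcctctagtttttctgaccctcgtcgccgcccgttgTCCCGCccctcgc
Ash2l, chr8:26958167-26958416 (- strand): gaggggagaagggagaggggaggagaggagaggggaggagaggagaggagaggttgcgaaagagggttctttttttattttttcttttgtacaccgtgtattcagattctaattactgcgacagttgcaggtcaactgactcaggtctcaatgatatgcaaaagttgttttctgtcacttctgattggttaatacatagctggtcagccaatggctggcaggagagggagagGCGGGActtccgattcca
Rbbp5, chr1:134373694-134373943 (+ strand): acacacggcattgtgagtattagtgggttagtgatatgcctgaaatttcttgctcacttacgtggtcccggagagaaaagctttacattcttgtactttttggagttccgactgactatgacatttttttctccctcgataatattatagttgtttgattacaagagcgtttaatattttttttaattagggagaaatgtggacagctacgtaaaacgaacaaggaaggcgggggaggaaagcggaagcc
Dpy30, upstream start, chr17:74723285-74723534 (- strand): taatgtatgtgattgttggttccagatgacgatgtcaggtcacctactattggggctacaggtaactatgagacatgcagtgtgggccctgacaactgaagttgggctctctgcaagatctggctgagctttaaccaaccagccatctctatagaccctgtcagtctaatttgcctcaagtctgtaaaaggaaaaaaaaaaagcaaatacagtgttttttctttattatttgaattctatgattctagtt
Dpy30, downstream start, chr17:74715774-74715984 (- strand): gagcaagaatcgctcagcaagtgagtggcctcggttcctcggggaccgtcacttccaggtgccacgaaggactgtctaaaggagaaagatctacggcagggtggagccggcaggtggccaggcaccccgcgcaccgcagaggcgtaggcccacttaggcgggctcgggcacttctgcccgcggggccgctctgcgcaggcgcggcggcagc

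In the 300 bases from 250 upstream to 50 downstream of the start, 3 of the 8 promoters held GCGGGA, beside 24.7% of 22354 promoters of that length. Wdr5 had a match 13 bases upstream of the TSS and matches 14 and 21 bases downstream, Ash2l had one 18 bases upstream, and Men1 had one 32 bases downstream. The E-box CACGTG, the site of Max and its partners, was in 0 of the 8 and in 7.70% of all. CGNGGGCG was in 0 of the 8 and in 13.7% of all. Both strands were searched, and the matches did not overlap one another. These counts rest on the start chosen: the other Ruvbl1 start, 318 bp downstream, had 1 match to CACGTG and 1 to GCGGGA, and both downstream starts of Ruvbl2 had 1 match to CGNGGGCG. The GC content had a median of 51% over the 8 and 55.3% over all promoters, and the observed over expected CpG count a median of 0.612 against 0.538. Rbbp5 stood at the upper end in CpG, at 1.13 (98.3rd percentile), and the upstream start of Dpy30 at the lower end, at 0.0810 (8.69th percentile).

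With the Santa Cruz antibody, 0 of the 8 promoters passed an adjusted p of 0.05 (one-sided exact binomial test, Benjamini-Hochberg over all promoters), beside a background of 0.649% of the 22359 promoters (145). With the Abcam antibody, 0 of the 8 passed, beside 1.1% (246). At an unadjusted exact binomial p under 0.05 there was 1 promoter with Santa Cruz (Dpy30) and 0 with Abcam, beside 4.996% and 6.25% of all. The ratio was over 1 at 1 of the 8 with Santa Cruz (background 39.6%), at 3 of the 8 with Abcam (background 43.4%) and with both antibodies at 1 of the 8, again Dpy30 (background 23.1%). The ratio was under 1 with both at 5 of the 8 (background 37%). With 8 promoters, 1 promoter more or less moves such a share widely, and nothing is read from it.

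Santa Cruz placed 59 fragments in the 8 windows and the input 633, a summed ratio of 0.810 (95% interval 0.609 to 1.06). Abcam placed 84, a summed ratio of 0.935 (0.736 to 1.18). The median ratio of the 8 was 0.760 with Santa Cruz and 0.891 with Abcam, and that of all promoters 0.899 and 0.940. All 8 intervals included 1 with both antibodies. Their upper bound was under 2 at 7 promoters with Santa Cruz and at 6 with Abcam, so that an enrichment of 2-fold lay outside the interval at most of them. An observed ratio below that could not pass the test at this depth. To pass, the 7 promoters other than Dpy30 needed Santa Cruz ratios between 2.25 (Men1) and 2.81 (Hcfc1). With Abcam they needed ratios between 2.09 (Men1) and 2.49 (Hcfc1). Dpy30 needed 6.02 with Santa Cruz and 5.42 with Abcam.

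**Figure D1:**
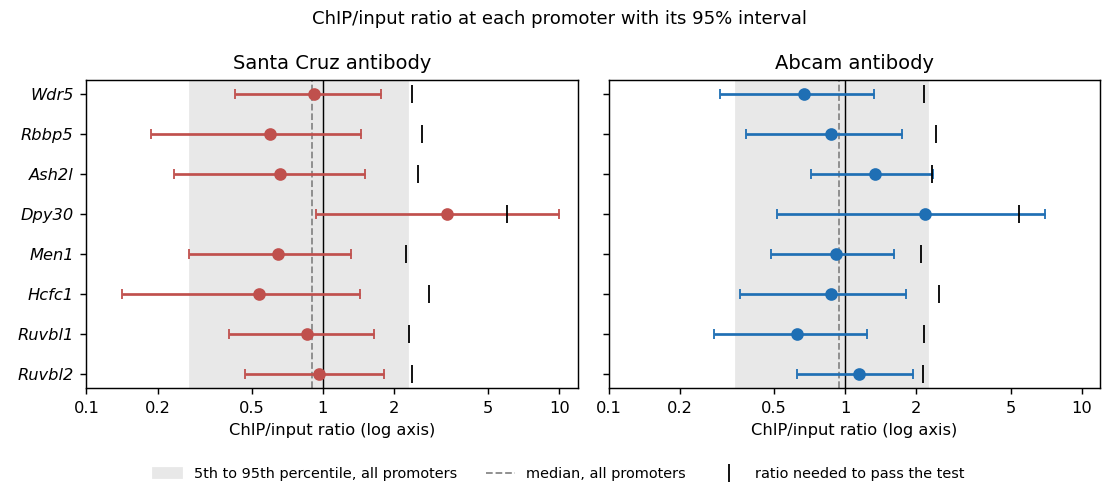
ChIP/input ratio (log axis) at each of the 8 promoters with the Santa Cruz (left) and Abcam (right) antibody; points are ratios, bars exact 95% intervals, the grey band the 5th to 95th percentile and the dashed line the median of all promoters, and black ticks the ratio a promoter needed to pass the test. Every bar crosses 1 and every point lies left of its tick, while the bars of Dpy30, with 13 input fragments, are the widest.

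Wdr5 is the WD40 subunit that binds the histone H3 tail and the Mll Win motif. It lies on chromosome 2 from 27370677 to 27392055 on the plus strand, with its main start at 27370677. Its scaled depth was 4.46 ppm in the input, 3.93 and 4.35 in the Santa Cruz libraries and 2.54 and 2.46 in the Abcam libraries. All ChIP libraries were below the input, and the Abcam pair below the Santa Cruz pair. The windows held 95 input fragments, 10 of Santa Cruz, which gave a ratio of 0.915 (0.425 to 1.76), and 9 of Abcam, which gave 0.668 (0.296 to 1.32). The second annotated start, 4604 bp into the gene, gave 0.936 and 0.867.

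Rbbp5, the subunit that joins Wdr5 to Ash2l, lies on chromosome 1 from 134373944 to 134402242 on the plus strand. A lincRNA, 6030442K20Rik, starts 322 bp upstream on the opposite strand, so the window covers both starts and their signals cannot be told apart. The input reached 3.22 ppm, the Santa Cruz libraries 2.18 and 2.17, and the Abcam libraries 2.90 and 2.81. Again every ChIP library was below the input. The 5 Santa Cruz and 9 Abcam fragments against 73 in the input gave 0.595 (0.188 to 1.45) and 0.869 (0.382 to 1.74).

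Ash2l, which activates the enzymes together with Rbbp5, lies on chromosome 8 from 26926663 to 26958166 on the minus strand. Scaled depths were 3.39 ppm in the input, 2.08 and 1.90 ppm in the Santa Cruz and 4.89 and 4.38 ppm in the Abcam libraries. It was the member on which the antibodies differed most, below the input with Santa Cruz and above it with Abcam. The 6 Santa Cruz and 15 Abcam fragments, against 79 of the input, gave 0.660 (0.235 to 1.5) and 1.34 (0.715 to 2.34). The largest group of Abcam fragments, 5, lay between 1500 and 2000 bp upstream, where the input predicted 2.27. The largest Santa Cruz group, 3 of its 6 fragments, lay there too, where the input predicted 1.84. This stretch holds the start of Kcnu1, a potassium channel gene read in the opposite direction from 1929 bp upstream. Within 1 kb of the Ash2l start the Abcam ratio was 0.904, and Santa Cruz had 0 fragments, a count that allows up to 3. Near 4 further annotated starts of Ash2l, 6915 to 7617 bp into the gene, the Santa Cruz ratios were 0.756 to 0.772 and the Abcam ratios 1.38 to 1.41, and every interval included 1.

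Dpy30, the small subunit that docks on Ash2l, lies on chromosome 17 from 74698814 to 74723284 on the minus strand. Here the input had 0.555 ppm, the Santa Cruz libraries 1.31 and 2.17 ppm, and the Abcam libraries 1.32 and 1.28 ppm. It was the only member at which the ChIP libraries were above the input with both antibodies, and the 2 libraries of each share most fragments. Its input depth was also the lowest of the 8, with 13 fragments against a median of 69 over all promoters (10.6th percentile). The ratios were 3.34 with Santa Cruz (5 fragments, 0.933 to 9.99) and 2.17 with Abcam (4 fragments, 0.515 to 7.02). The exact binomial p was 0.0318 with Santa Cruz and 0.152 with Abcam, with adjusted p of 0.838 and 1. To pass, 9 and 10 fragments would have been needed.

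The start taken for Dpy30 was the upstream one of a tie, and 3 of its 4 RefSeq starts lie 7511 to 7733 bp downstream of it. At the downstream annotated start, position 74715734, the promoter had 68.3% GC and a CpG ratio of 0.978 (90.8th percentile), against 40.7% and 0.0810 upstream, as the sequences show. There the input held 37 fragments. Santa Cruz had 7, a ratio of 1.64 (0.618 to 3.74), and Abcam 5, a ratio of 0.952 (0.292 to 2.43). At the RefSeq starts on either side of it, the Abcam ratios were 1.07 and 1.01 and the Santa Cruz ratios 1.84 and 1.49, and all of these intervals include 1. Within 10 kb of the upstream start, the ratios were 1.62 with Santa Cruz and 1.31 with Abcam.

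**Figure D2:**
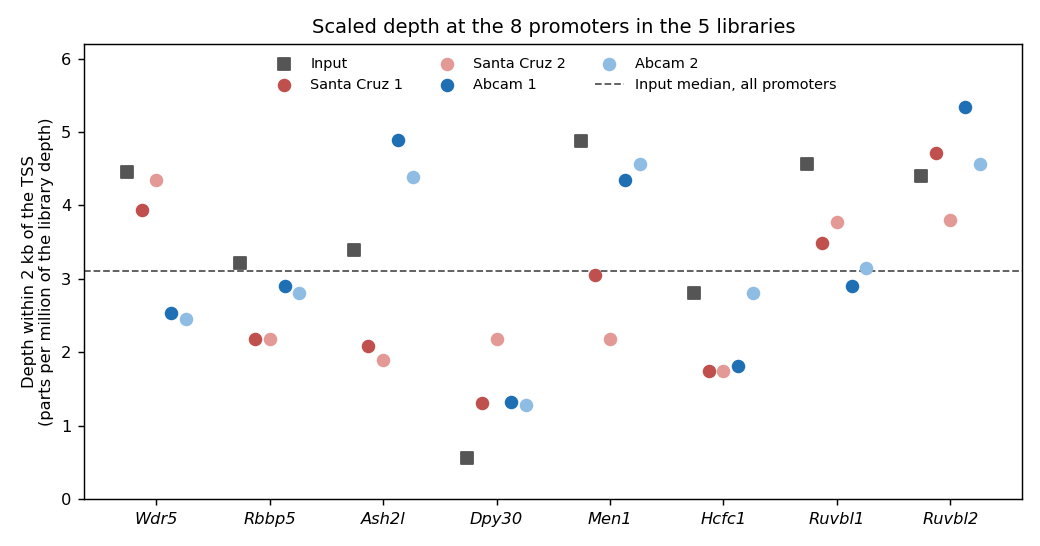
Depth within 2 kb of the TSS of each gene, in ppm of the summed depth of its library; squares are the input, circles the 2 libraries of each antibody (which share most fragments), and the dashed line the input median of all promoters, 3.11. The circles of Dpy30 lie above its square at 0.555, those of Wdr5, Rbbp5, Men1, Hcfc1 and Ruvbl1 lie below theirs, and those of Ash2l lie below for Santa Cruz and above for Abcam.

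Men1 lies on chromosome 19 from 6334979 to 6340891 on the plus strand. It had the highest input depth of the 8, 4.87 ppm, and the Santa Cruz libraries had 3.06 and 2.17 ppm, the Abcam libraries 4.35 and 4.56 ppm. The 8 Santa Cruz and 14 Abcam fragments against 108 gave 0.644 (0.271 to 1.31) and 0.914 (0.483 to 1.6). All ChIP libraries were below the input. Its 8 annotated starts lie within 1931 bp, and the ratios at these starts stayed between 0.638 and 0.762 (Santa Cruz) and between 0.699 and 0.922 (Abcam).

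Hcfc1 lies on chromosome X from 71188131 to 71211696 on the minus strand. It had 2.81 ppm in the input, 1.75 and 1.74 ppm in the Santa Cruz libraries and 1.81 and 2.81 ppm in the Abcam libraries, so that the second Abcam library was level with the input and the others below it. The 4 Santa Cruz and 8 Abcam fragments against 65 gave 0.535 (0.141 to 1.44), the lowest Santa Cruz ratio of the 8, and 0.867 (0.359 to 1.81). The window moved these values: within 3 kb the Santa Cruz ratio was 0.848, and within 1 kb the Abcam ratio was 0.571. Another annotated start, 17104 bp into the gene, gave 0.310 (0.0367 to 1.17) and 0.503 (0.133 to 1.36). The X chromosome as a whole carried fewer fragments per base than the median autosome, 0.249 times in the input, 0.314 with Santa Cruz and 0.309 with Abcam, and its part in the ratio was not tested. Without Hcfc1 the summed ratio of the other 7 was 0.841 with Santa Cruz and 0.943 with Abcam.

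Ruvbl1 lies on chromosome 6 from 88415403 to 88447566 on the plus strand. Against 4.56 ppm in the input, the Santa Cruz libraries had 3.49 and 3.77 ppm and the Abcam libraries 2.90 and 3.15 ppm, all of them below it. The 10 and 9 fragments against 101 gave 0.860 (0.400 to 1.65) and 0.628 (0.279 to 1.24), the latter the lowest Abcam ratio of the 8. Within 1 kb of the start, the Abcam ratio was 0.347.

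Ruvbl2 lies on chromosome 7 from 52677222 to 52693466 on the minus strand. Against 4.40 ppm in the input, the Santa Cruz libraries had 4.72 and 3.8 ppm and the Abcam libraries 5.34 and 4.56 ppm, so the ChIP libraries fell on both sides of the input. The 11 and 16 fragments against 99 gave 0.966 (0.467 to 1.80) and 1.14 (0.627 to 1.94). Within 1 kb of the start, they were 0.328 and 0.798. The largest group of Santa Cruz fragments, 6 of the 11, lay between 1500 and 2000 bp upstream, where the input predicted 1.04 and Abcam had 4.

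The only RefSeq start of Ruvbl2 lies 3632 bp downstream of the start used. Around it were 121 input fragments, 6 of Santa Cruz with a ratio of 0.431 (0.155 to 0.966), and 8 of Abcam with a ratio of 0.466 (0.197 to 0.948). Of the 26 annotated starts of the 8 genes, 1 had both intervals below 1, and it was the Ruvbl2 start 3473 bp downstream, with the same fragments. An interval above 1 was found at 0 of the 26. Many of the 26 windows overlap, as at Men1. The share of all promoters with such intervals was not counted, and nothing is read from these counts. The 26 starts were looked at after the values of the main starts were known. With tied starts taken downstream in the test over all promoters, the adjusted p of Ruvbl2 was 1 with both antibodies (one-sided exact binomial test for enrichment), and a lower ratio was not tested.

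Along the windows, ChIP fragments were too few to form a shape. Of 64 bins of 500 bp over the 8 promoters, 24 held no Santa Cruz and 21 no Abcam fragment, and the fullest held 6 and 5. Within 500 bp of the starts were 15 Santa Cruz, 27 Abcam and 204 input fragments, and between 1500 and 2000 bp from them 16, 23 and 159. Per base, the centre thus held 0.938 times the outer part with Santa Cruz, 1.18 times with Abcam and 1.28 times in the input. Over all promoters, these ratios were 1.63, 1.78 and 1.71.

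**Figure D3:**
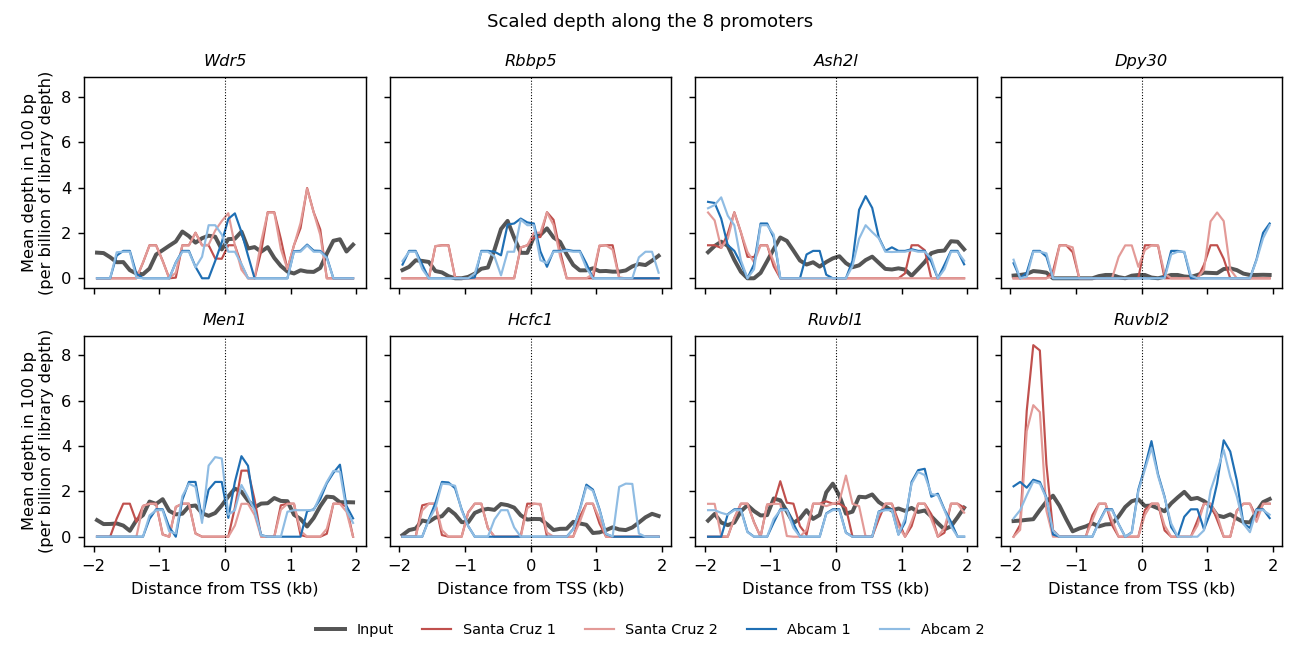
Mean depth in 100 bp bins, in ppb of the summed library depth, from 2 kb upstream to 2 kb downstream of each TSS (dotted line), in the input (thick grey) and the 2 libraries of each antibody. Each ChIP bump is 1 to a few fragments of 300 bp, and the tallest is the group of 6 Santa Cruz fragments between 1500 and 2000 bp upstream of Ruvbl2.

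The antibodies were then compared with each other at the same windows. At 0 of the 8 promoters did they differ at an adjusted p of 0.05 (two-sided exact binomial test, Benjamini-Hochberg over all promoters), beside a background of 0.00894% (2 of 22359), and the unadjusted p was under 0.05 at 0 of the 8 and at 544 of all. The Abcam ratio was above the Santa Cruz ratio at 5 of the 8, a count from which nothing is read. Over all promoters the median ratio was also higher with Abcam, 0.940 against 0.899. The Abcam/Santa Cruz ratio ran from 0.649 at Dpy30 (0.129 to 3.01) to 2.03 at Ash2l (0.743 to 6.38; exact binomial p = 0.1996 before adjustment). The interval that was narrowest on a log scale, that of Ruvbl2, ran from 0.514 to 2.81, so the test does not show that the antibodies gave the same values. No fragment position was shared by the antibodies in the 8 windows. Over the genome 27781 positions were shared, of 2565162 Santa Cruz and 3162822 Abcam fragments, so nothing is read from the 0.

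**Figure D4:**
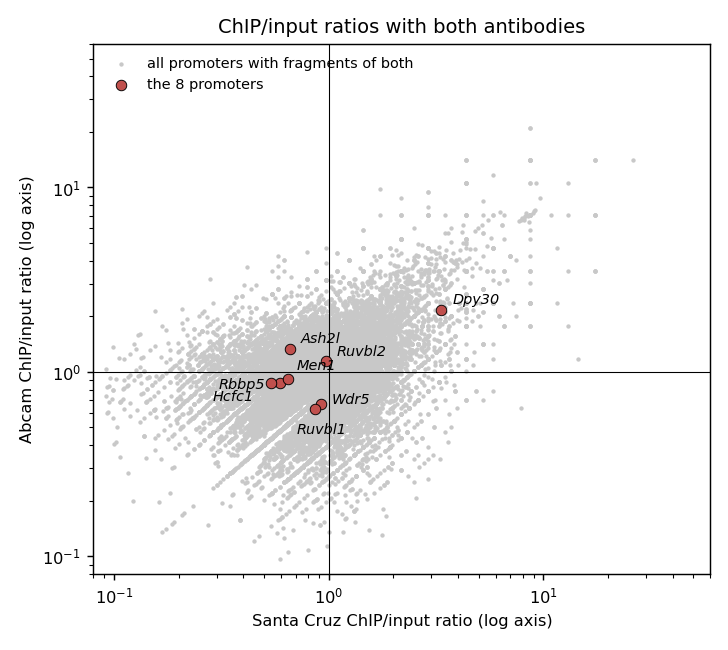
Santa Cruz against Abcam ChIP/input ratio (both log axes) of all promoters with fragments of both antibodies (grey) and of the 8 promoters (red). Dpy30, at 3.34 and 2.17, is the only red point above 1 on both axes, and the others lie within the main cloud of promoters, 5 of them below 1 on both.

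Peaks were sought with a Poisson scan against the local input (p under 1e-05). It gave 735 peaks with Santa Cruz and 1022 with Abcam. Within 10 kb of the TSS of the 8 genes there were 0 with either antibody, beside a background of 2.06% of promoters with Santa Cruz and 3.36% with Abcam. The peak nearest to any of the 8 was the same with both antibodies, 12927 bp upstream of Wdr5. It spanned 27356651 to 27357750 on chromosome 2 with Santa Cruz, where 16 fragments in 600 bp stood against 3.52 expected, and began 50 bp earlier with Abcam, with 23 against 4.36. It lies in an intron of Brd3, the gene of a bromodomain protein that reads acetylated histones, 5432 bp from the closest Brd3 start. For the other 7 genes the nearest peak was 160994 bp or more away.

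The 42 other genes, listed as methyltransferases, other subunits or partners, had no promoter past the threshold either, with 42 of 42 found in the annotation. The median ratio of the 42 genes was 0.842 with Santa Cruz and 0.826 with Abcam, beside 0.899 and 0.940 over all promoters. A ratio over 1 was found at 17 and 15 of them, beside 39.6% and 43.4% of all promoters. The same backgrounds apply to each list, and nothing is read from these counts. The methyltransferase list held 7 genes (Kmt2a, Kmt2b, Kmt2c, Kmt2d, Setd1a, Setd1b and Ash1l). With Santa Cruz 2 of them were over 1, the highest Kmt2b at 1.35, and with Abcam 1, Setd1b at 1.07. Setd1a, the catalytic subunit of a Set1 complex, was lowest with Abcam, at 0.381, and Setd1b was lowest with Santa Cruz, at 0.614.

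Among the 9 other subunits, Wdr82, the Set1 subunit that binds RNA polymerase II, was highest with both antibodies. Its 19 Santa Cruz and 21 Abcam fragments against 77 in the input gave 2.14 and 1.92, with adjusted p of 0.318 and 0.334 (exact binomial test, Benjamini-Hochberg over all promoters). Paxip1, a subunit of the Mll3 and Mll4 complexes, was lowest with Santa Cruz, at 0.386. Kdm6a, the histone demethylase of the same complexes, had 0 Abcam fragments against 45 in the input, a count that allows up to 3, and 3 with Santa Cruz.

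Of the 21 partners of the Ruvbl proteins, 8 were over 1 with Santa Cruz and 9 with Abcam, with medians of 0.724 and 0.843. The highest were Vps72, a histone chaperone subunit of SRCAP, at 1.29 with Santa Cruz and Ino80, the ATPase of its complex, at 1.38 with Abcam. The lowest were Trrap, the scaffold of TIP60, at 0.259 with Santa Cruz and Ep400 at 0.498 with Abcam. Of the 5 Hcfc1 partners, Bap1, a deubiquitinase of histone H2A, was highest with both, at 1.58 and 1.52. The lowest were Zfp143 at 0.467 with Santa Cruz and Thap11 at 0.564 with Abcam. The medians of these partners were 1.09 and 0.758.

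**Figure D5:**
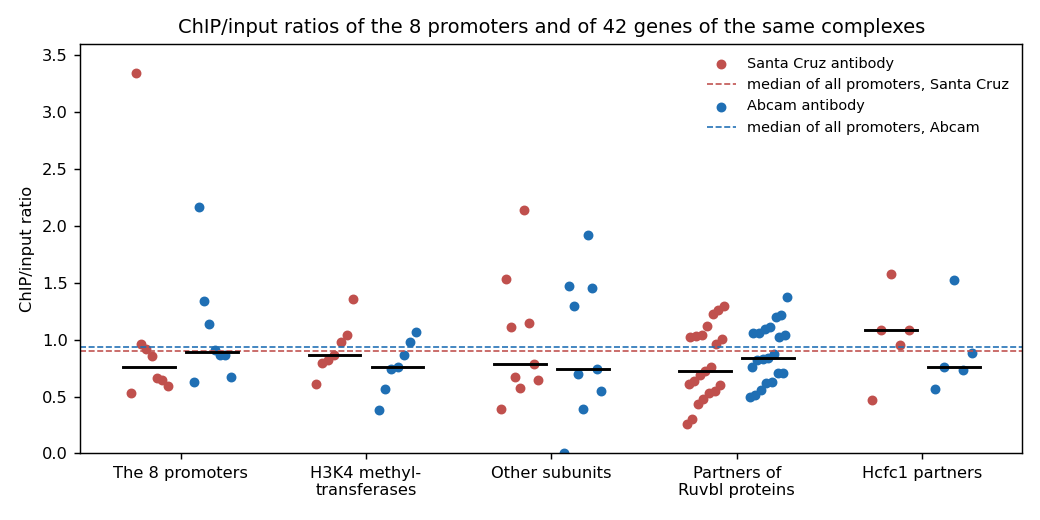
ChIP/input ratios of the 8 promoters and of the 42 genes in the 4 lists, by antibody. Points are promoters, black bars list medians and dashed lines the medians of all promoters, 0.899 and 0.940. The points of every list spread on both sides of the dashed lines, and Wdr82 is the highest point outside the 8.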

How the data were processed

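For each library the authors deposited its coverage signal on mm9, as whole numbers, with reads lengthened to 300 bp and with neither scaling to library size nor division by the input. The labels list Bowtie (version given as 0.1.2.7). Filters on mapping and duplicates are not given in the sources used here. Fragments were placed from the steps in depth at their ends (tolerance 1 bp, tested on simulated data), 1 fragment was kept per position, and the libraries of an antibody were pooled as described.

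Starts came from GENCODE vM1 on NCBIM37, taking for each protein-coding gene the start shared by most coding transcripts and the upstream one on a tie. Fragments with their middle within 2 kb of it were counted, and ratios were scaled by library totals. The planned exact binomial tests were adjusted after Benjamini and Hochberg over 22359 promoters at a threshold of 0.05. The peak scan used windows of 600 bp, steps of 50 bp, and the highest of the genome-wide, 5 kb and 10 kb input rates. Python 3.11.15, numpy 2.4.6, scipy 1.17.1, numba 0.67.0 and matplotlib 3.10.9 were used. RefSeq promoters (GRCm38.p6) of 7 of the 8 genes were placed on NCBIM37 by exact match of their 12 sequences.

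All 8 genes are named. Genes of the 4 lists are named if past the threshold or at an end of their list, and neighbours if they start within 2 kb. The genes, lists and tests were chosen with earlier results of these data known.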

Additional observations from a re-analysis of the deposited data

How the results depend on the processing

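The counts of fragments limit every value: 59 Santa Cruz and 84 Abcam fragments carry the 8 promoters, and antibody and library cannot be told apart. No paired analysis was possible because the libraries of an antibody hold mostly the same fragments and the input has 1 library. Over 10 alternatives per promoter and antibody, 153 of 160 ratios kept their side of 1 and 7 changed it. Some alternatives could hardly differ from the main values. The most upstream start was the main start of all 8 genes, and either library of an antibody holds most of its fragments. Of the 144 ratios that had a test, 0 passed the threshold. The lowest adjusted p (exact binomial test, Benjamini-Hochberg) under any was 0.318, at Dpy30 with Santa Cruz, whose alternatives ran up to 1. With 1 kb on either side, Ash2l and Ruvbl2 fell to 0.904 and 0.798 with Abcam. With 10 kb, Ruvbl1 came to 1.03 with Santa Cruz, and Rbbp5 and Ruvbl2 to 1.07 and 0.969 with Abcam. With tied starts taken downstream, an alternative chosen after seeing the data, Dpy30 came to 0.952 and Ruvbl2 to 0.466 with Abcam, and the summed ratios to 0.697 and 0.805. The cause was not tested.

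Leaving out either library of an antibody gave summed ratios of 0.768 to 0.787 (Santa Cruz) and 0.930 to 0.934 (Abcam). Promoters past the threshold numbered 383 and 621 with all fragments as deposited, where shared fragments count more than once, and 89 with Santa Cruz in windows of 10 kb. With a peak cutoff of 0.001, or with the genome-wide input rate only, 1 of the 8 promoters had an Abcam peak within 10 kb instead of 0. It was Ruvbl1, with 8 fragments in an intron 5298 bp downstream of its start, where 11.95% and 9.09% of all promoters had such a peak.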
